A study of Mus musculus with 6 samples.

Results

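Heavy chain variable (V) genes, the Ighv genes, were read in RNA from spleens of mice carrying transferred cells of a B cell lymphoma model and from B cells of wild-type spleens. They were taken as all rows of the count table whose Ensembl gene ID belongs to a symbol starting with Ighv, which gave 185 of 56884 rows, 183 symbols and 16 subfamilies. The subfamily is the number after Ighv, and position is the start coordinate in the table (GRCm39, chromosome 12). The P1 group held 3 whole spleens labelled passage 1 in the adoptive transfer of Eµ-SOX11CCND1, a mouse model of mantle cell lymphoma, replicates 3, 4 and 5. The WT group held B cells selected from wild-type spleens, with BL6 in the column names, lettered A, B and C by column because these columns could not be tied to mouse numbers. The model's name joins the Eµ enhancer of the heavy chain locus, which is active mainly in B lineage cells, with SOX11 and CCND1, genes that mantle cell lymphoma expresses. All libraries were made from 50 ng of total RNA with a directional kit. The labels do not state the recipients' strain, age, sex or other treatment, nor whether the 3 recipients got cells of the same donor, so p-values measure only the spread between these samples.

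Each B cell joins 1 V, 1 D and 1 J segment on a chromosome into its heavy chain gene, and its descendants keep that join. A population of many unrelated B cells therefore transcribes many V genes, whereas the descendants of a single cell transcribe mainly the V gene that was joined in it. Reads of a V gene thus report which joins are transcribed and how strongly, and the subfamilies group V genes of similar sequence. Ighv2 and Ighv5 genes lie nearest to the D segments, and the large Ighv1 family and Ighv8 lie farther from them.

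Before any result, several properties set the libraries apart. Library totals were 10363396, 7510327 and 7969649 counts in P1 3, 4 and 5, and 13978445, 14266132 and 12196413 in the WT libraries A, B and C. Ighv genes held 3524, 567 and 2440 of these in P1 3, 4 and 5, and 9273, 10992 and 9435 in WT A, B and C. P1 4 was the shallowest for Ighv, and a count of 0 there allows a share of up to 0.529% of Ighv counts, against 0.123% in P1 5 and 0.0851% in P1 3. This limit and the intervals below cover counting error only. Mitochondrial genes took 3.40%, 17.4% and 0.0854% of counts in P1 3, 4 and 5, and 0.569% to 1.13% in WT. Erythroid markers summed to 35516, 222937 and 6530 normalised CPM, counts scaled to a common library size, in the P1 libraries, against 54.3 to 79.9 in WT, and all 9 tested of 10 were higher. All 10 neutrophil and all 10 T cell markers were also higher, with sums of 962 to 7345 and 253 to 662 CPM in P1, against 2.44 to 7.94 and 42.6 to 55.7 CPM in WT. Pan-B cell markers were lower for 19 of 20, with sums of 1425 to 3934 CPM in P1 and 13091 to 14362 CPM in WT. Within this list the ratio of WT to P1, from counts pooled over each group and scaled by library size, ran from 2.33 for Blnk to 501 for Cr2. The sum is therefore not a fixed measure of B cell content. Of 10 macrophage markers 1 was higher, with sums of 538 to 1213 CPM in P1 and 243 to 628 CPM in WT, and of 9 tested plasma cell markers 1 was higher and 1 lower. The part of these differences in the results below was not tested. In whole-tissue RNA, fewer cells of a type and less RNA per cell cannot be told apart.

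Ighv1-69 was the most counted V gene in all 3 P1 spleens and a minor one in WT B cells. Its germline sequence is shown because every share below turns on it, with that of Ighv1-11, the V gene counted second in P1 4 and P1 5, and that of Ighv1-50, the V gene closest to Ighv1-69 in sequence. These are GENCODE M21 transcript sequences of the listed genes, printed from base 58, after the leader, to base 351, the end of the V segment. Ighv1-50 has a gene length of 390 bases, and its bases are numbered within the 351 aligned to Ighv1-69. Capitals mark bases that differ from Ighv1-69 in a pairwise alignment without gaps.
Ighv1-69: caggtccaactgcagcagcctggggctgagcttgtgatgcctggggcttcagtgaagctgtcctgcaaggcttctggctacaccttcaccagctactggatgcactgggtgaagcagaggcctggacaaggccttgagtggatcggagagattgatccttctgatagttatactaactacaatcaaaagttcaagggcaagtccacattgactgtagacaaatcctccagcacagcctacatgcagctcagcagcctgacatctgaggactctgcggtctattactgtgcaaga
Ighv1-11: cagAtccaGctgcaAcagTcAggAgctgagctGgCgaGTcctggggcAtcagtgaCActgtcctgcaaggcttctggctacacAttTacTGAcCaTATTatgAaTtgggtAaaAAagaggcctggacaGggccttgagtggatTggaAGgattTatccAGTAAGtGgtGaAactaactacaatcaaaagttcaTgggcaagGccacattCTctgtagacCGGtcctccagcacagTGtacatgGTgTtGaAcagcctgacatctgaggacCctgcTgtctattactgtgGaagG
Ighv1-50: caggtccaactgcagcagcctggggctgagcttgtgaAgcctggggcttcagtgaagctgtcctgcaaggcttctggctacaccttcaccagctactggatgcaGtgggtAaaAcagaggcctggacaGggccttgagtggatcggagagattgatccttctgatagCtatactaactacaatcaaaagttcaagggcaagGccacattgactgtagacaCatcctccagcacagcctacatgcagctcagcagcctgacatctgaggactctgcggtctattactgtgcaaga
Ighv1-69 lies on chromosome 12 from 115586781 to 115587215, Ighv1-11 starts at 114575863 and Ighv1-50 starts at 115083368, all on the minus strand. Ighv1-11 differed from Ighv1-69 at 74 of 351 bases, an identity of 78.9%, with no shared run longer than 26 bases, and 60 of these bases are in the printed stretch. Ighv1-50 differed at 10 of 351 bases, an identity of 97.2%, with a shared run of 73 bases, and 8 of them are printed.

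Ighv1-69 had 1957, 525 and 2362 counts in P1 3, 4 and 5, and 84, 120 and 71 in WT A, B and C. As a share of all Ighv counts it took 55.5% (95% Wilson interval 53.9 to 57.2), 92.6% (90.1 to 94.5) and 96.8% (96.0 to 97.4) in P1 3, 4 and 5, and 0.906%, 1.09% and 0.753% in WT A, B and C. The P1 and WT libraries were far apart, and the lowest P1 share was in P1 3. In WT A, B and C the gene had rank 36, 31 and 33 among the members. Its normalised level was 168, 121 and 274 CPM in P1 3, 4 and 5, and 5.09, 7.71 and 5.37 CPM in WT A, B and C. Relative to the WT mean this was 27.8, 20.1 and 45.3-fold higher in P1 3, 4 and 5, with the highest level in P1 5 and the lowest in P1 4. The log2 fold change was 4.95 ± 0.41 (SE, n = 3 each, edgeR quasi-likelihood test, adjusted p = 0.000405).

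The other V genes differed much more between the spleens. All Ighv genes except Ighv1-69 summed to 135, 9.72 and 9.05 CPM in P1 3, 4 and 5, and to 557, 698 and 708 CPM in WT A, B and C. P1 3, 4 and 5 were 4.86, 67.3 and 72.3-fold below the WT mean in this sum, and 6.50, 9.71 and 3.52-fold below it in the sum of the pan-B markers. In P1 3 both sums were low to a similar degree, whereas in P1 4 and P1 5 the other V genes were lower than the pan-B markers. The group means were 51.2 ± 72.4 CPM in P1 and 654 ± 84.5 CPM in WT (SD, n = 3 each, exact permutation test, two-sided, p = 0.10, the smallest that 3 against 3 can give). Per 1000 pan-B counts the other V genes had 63.3, 6.82 and 2.30 counts in P1 3, 4 and 5, and 39.7, 48.6 and 54.1 in WT, with P1 3 above every WT library and the other spleens below (exact permutation p = 0.40).

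**Figure D1:**
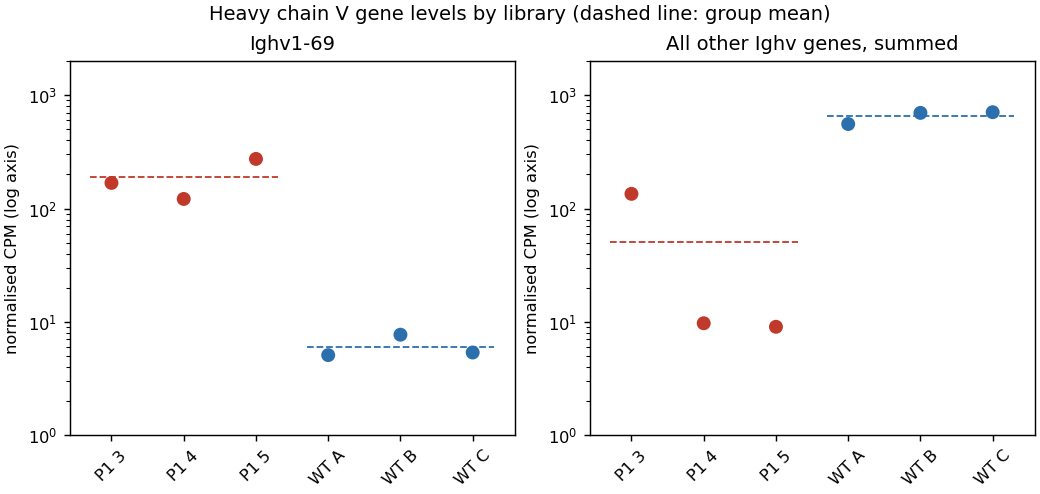
Normalised CPM on a log axis in each library for Ighv1-69 and for all other Ighv genes summed, with P1 left of WT and a dashed line at each group's mean. Ighv1-69 lies between 121 and 274 CPM in P1 and at most at 7.71 CPM in WT, while the other V genes lie at 135, 9.72 and 9.05 CPM in P1 3, 4 and 5 and at 557 CPM or more in WT.

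The total of V gene transcripts depended on what it was set against. Ighv genes took 340, 75.5 and 306 CPM of all counts in P1 3, 4 and 5, and 663, 770 and 774 in WT, without overlap. Set against the pan-B markers, the order turned round: there were 142, 92.1 and 72.0 Ighv counts per 1000 pan-B counts in P1 3, 4 and 5, and 40.0, 49.1 and 54.5 in WT. The pan-B markers themselves fell very unevenly, as given above, so this order holds for their sum only. Set against Ighm, the constant gene of IgM, there were 97.7, 71.2 and 79.2 Ighv counts per 1000 in P1 and 109, 109 and 113 in WT. V gene counts per Ighm count were thus closer between the groups than either count was by itself. Ighv1-69 alone gave 54.2, 65.9 and 76.7 counts per 1000 Ighm counts in P1, against 0.989, 1.19 and 0.847 in WT. The exact permutation test gave p = 0.10 for the total under each of the 3 denominators.

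By subfamily, Ighv1 took more of the V gene counts in P1 and most other subfamilies took less. Ighv1, the largest with 93 rows, held 70.0%, 98.9% and 99.6% in P1 3, 4 and 5, and 46.1%, 55.1% and 47.8% in WT A, B and C. Ighv1-69 alone made up 79.3%, 93.6% and 97.2% of these Ighv1 counts in P1, against 1.96%, 1.98% and 1.57% in WT. Ighv5, the next largest with 22 rows, held 8.06%, 0.176% and 0.0410% in P1 and 11.2%, 10.5% and 12.3% in WT. Ighv3 held 1.31% in P1 3 and had no count in P1 4 and 5, against 5.54%, 4.79% and 10.9% in WT. Ighv14 held 1.504% in P1 3 and no count in P1 4 and 5, against 7.82%, 3.68% and 6.58% in WT. These P1 shares lay below every WT library, with P1 3 nearest to WT. Ighv6 was the subfamily other than Ighv1 and Ighv5 with a count in every P1 spleen, at 3.04%, 0.529% and 0.246% in P1 and 6.70%, 3.27% and 3.20% in WT. Ighv10 overlapped, with 2.92% in P1 3 inside the WT range of 2.83% to 4.10%. The single gene of Ighv16, Ighv16-1, had no count in any library. Shares sum to 100%, so the subfamilies are not independent, and no subfamily reached an adjusted p below 0.145 (exact permutation, Benjamini-Hochberg over 16 subfamilies, smallest raw p = 0.10).

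**Figure D2:**
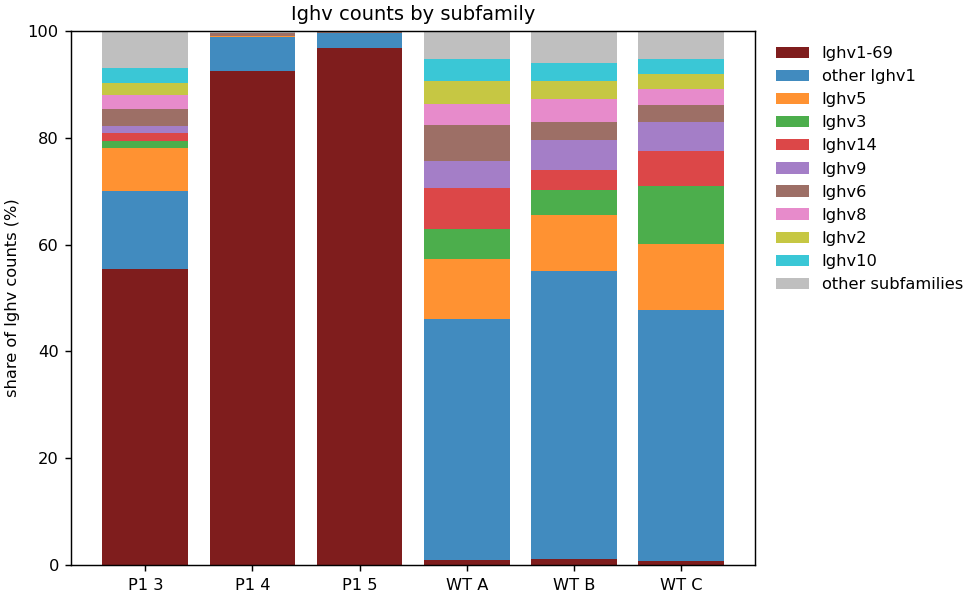
Stacked bars of the percentage of Ighv counts by subfamily in each library, with Ighv1-69 drawn apart from the other Ighv1 genes and P1 left of WT. Ighv1-69 fills 55.5%, 92.6% and 96.8% of P1 3, 4 and 5 and 0.753% to 1.09% of the WT bars.

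With Ighv1-69 set aside, 1567, 42 and 78 counts were left in P1 3, 4 and 5, and 9189, 10872 and 9364 in WT. P1 4 and P1 5 then had a second dominant gene, Ighv1-11, with 35 and 63 of these counts. Ighv1-11 had 4 counts in P1 3, and 21, 22 and 9 in WT A, B and C. It took 0.114% (0.0441 to 0.292), 6.17% (4.47 to 8.46) and 2.58% (2.02 to 3.29) of all Ighv counts in P1 3, 4 and 5, against 0.226%, 0.200% and 0.0954% in WT. By share, P1 4 and P1 5 were above every WT library and P1 3 lay inside the WT range. Its normalised level was 0.344, 8.10 and 7.31 CPM in P1 3, 4 and 5, and 1.27, 1.41 and 0.680 CPM in WT, with a log2 fold change of 2.18 ± 0.93 that did not pass (edgeR, adjusted p = 0.119). Without P1 3 the log2 fold change was 2.75 (edgeR, adjusted p = 0.0055). P1 3 was the spleen where the gene was low, so passing without it adds no support. Per 1000 counts of Ighv1-69 there were 2.04, 66.7 and 26.7 counts of Ighv1-11 in P1 3, 4 and 5, so the ratio of the 2 genes was not fixed across spleens.

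The counts of Ighv1-11 did not follow likeness to Ighv1-69. Of the 182 other members compared, Ighv1-11 ranked 73rd by identity. The 3 closest, Ighv1-50, Ighv1-59 and Ighv1-74, with 97.2%, 96.9% and 96.0% identity, had 22, 10 and 13 counts in P1 3 and none in P1 4 or 5. The 11 genes with at least 90% identity together held 128, 1 and 2 counts in P1 3, 4 and 5, which was 8.17%, 2.38% and 2.56% of the counts without Ighv1-69, against 8.12%, 9.31% and 11.97% in WT A, B and C. In P1 4 and P1 5 most of the counts behind these shares were those of Ighv1-11, so the shares there say little about the near copies. How the counting treated reads that fit several V genes is not given in the sources used here, and joined V genes can carry mutations, so counts of near copies remain uncertain. The other 91 Ighv1 members had 69.7% to 97.2% identity with a median of 83.3%, and members of other subfamilies had a median of 58.0% and at most 79.5%.

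**Figure D3:**
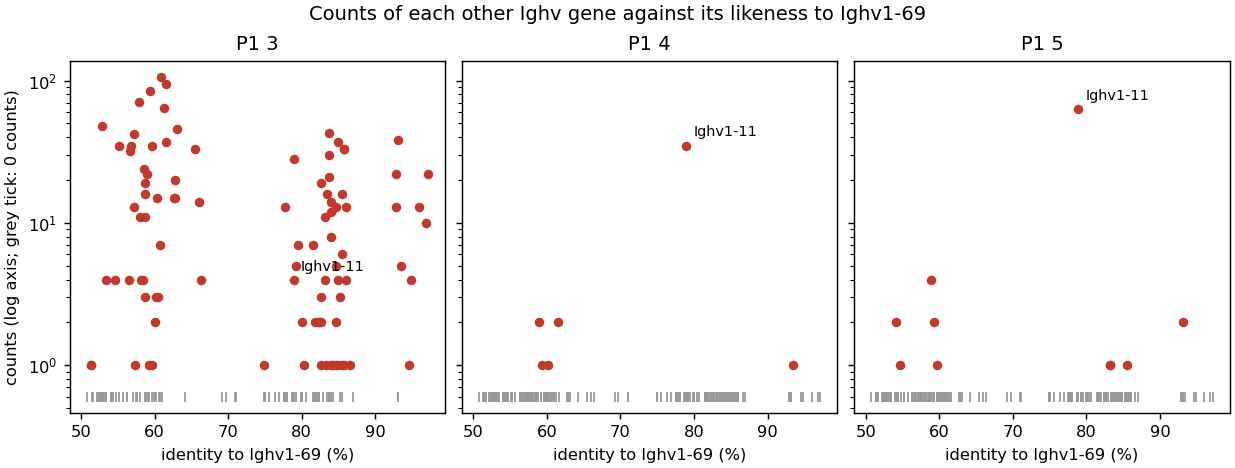
Counts of every other Ighv gene on a log axis against its sequence identity to Ighv1-69 in percent, 1 panel for each P1 spleen, with grey ticks for genes at 0 counts. In P1 4 and P1 5 the highest point is Ighv1-11 at 78.9% identity with 35 and 63 counts, while the genes above 90% identity hold 1 and 2 counts in all.

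The remaining counts of P1 4 and P1 5 were few. Only 4 V genes were counted in every P1 spleen, Ighv1-69, Ighv1-11, Ighv6-3 and Ighv6-6, against 107 counted in every WT library. Ighv6-6 had 22, 2 and 4 counts in P1 3, 4 and 5, and 76, 98 and 101 in WT. Ighv6-3 had 84, 1 and 2 counts in P1, and 541, 259 and 200 in WT. Both were lower in every P1 spleen by count, and as shares of the counts without Ighv1-69 they were 1.40%, 4.76% and 5.13% for Ighv6-6 in P1, against 0.827%, 0.901% and 1.08% in WT. For Ighv6-3 the same shares overlapped, at 5.36%, 2.38% and 2.56% in P1 and 5.89%, 2.38% and 2.14% in WT. With so few counts in P1 4 and 5 these shares are imprecise. For Ighv6 as a whole the shares without Ighv1-69 were 6.83%, 7.14% and 7.69% in P1 and 6.76%, 3.30% and 3.23% in WT (exact permutation p = 0.10, adjusted p = 0.267).

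P1 3 differed from the other spleens in keeping a broad set of V genes. It had counts in 97 members, against 7 and 11 in P1 4 and P1 5 and 123, 121 and 114 in WT A, B and C. After Ighv1-69 was set aside, 15 genes were needed to reach 50% of its counts, as against 15, 16 and 11 in WT, and 1 gene, Ighv1-11, sufficed in P1 4 and in P1 5. Its make-up nevertheless differed from WT. Of 51 genes with a WT mean of at least 50 counts, 20 lay below the WT range in P1 3, 15 within it and 16 above it, all as shares without Ighv1-69. The summed overlap of these shares over all genes was 65.6%, 62.6% and 56.5% between P1 3 and WT A, B and C, against 76.1% to 80.3% between WT libraries. P1 3 had fewer counts than any WT library, and the part of depth in these numbers of genes and in this overlap was not tested. A range of 3 libraries also leaves some genes of any further library outside it, and 1 library allows no test.

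Among V genes other than Ighv1-69 with at least 10 counts in P1 3, Ighv5-12 stood farthest above WT by ratio. It had 106, 0 and 0 counts in P1 3, 4 and 5, and 25, 35 and 28 in WT A, B and C. Its share without Ighv1-69 was 6.76% (5.62 to 8.12) in P1 3, against 0.272% to 0.322% in WT, which is 22.7-fold the WT mean. Its log2 fold change over all 3 spleens was 0.72 ± 1.32 (edgeR, adjusted p = 0.726), with P1 3 above WT and the other spleens below it. Ighv7-3 had 94, 2 and 0 counts in P1 and 105, 146 and 100 in WT, and its share in P1 3 was 6.0%, against 1.07% to 1.34% in WT. Ighv10-1, Ighv4-1 and Ighv12-3 took 4.53%, 4.08% and 2.68% in P1 3, against WT maxima of 2.09%, 2.38% and 0.881%. The rule for naming genes includes the most counted WT gene of each subfamily, so the spread of these genes over subfamilies follows from that choice. Ighv5-15, Ighv5-9 and Ighv2-9-1 had 20, 15 and 35 counts in P1 3. Their ratios to the WT mean share were larger than those of Ighv10-1, Ighv4-1 and Ighv12-3. Of the 49 members with at least 10 counts in P1 3, Ighv1-69 included, 24 genes other than Ighv1-69 lay above their WT range. The limit of 10 counts was set on P1 3 itself and favours genes that are high there, so this number only describes that library.

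Several of the V genes most counted in WT lay below WT in P1 3. Ighv1-9 had 12, 0 and 0 counts in P1 3, 4 and 5, and 585, 561 and 728 in WT A, B and C. Ighv1-80 had 33, 0 and 0 counts in P1, and 506, 681 and 741 in WT. As shares without Ighv1-69 they took 0.766% and 2.11% in P1 3, against 5.16% to 7.77% and 5.51% to 7.91% in WT. Ighv14-2 took 0.319% in P1 3 and 1.26% to 5.53% in WT, and Ighv3-6 took 1.53% and 2.74% to 9.41%. All 4 lay below every WT library in P1 3, and none had a count in P1 4 or P1 5. Ighv6-3 and Ighv1-82, also among the most counted in WT, lay within the WT range in P1 3 by this share. Choosing genes by high WT counts favours those that lie lower in P1 3, so these values only describe that library. Across the 51 genes, Spearman's rho of the shares was 0.48, 0.37 and 0.39 between P1 3 and WT A, B and C, and 0.64 to 0.79 between WT libraries, as a description over genes that share their libraries.

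**Figure D4:**
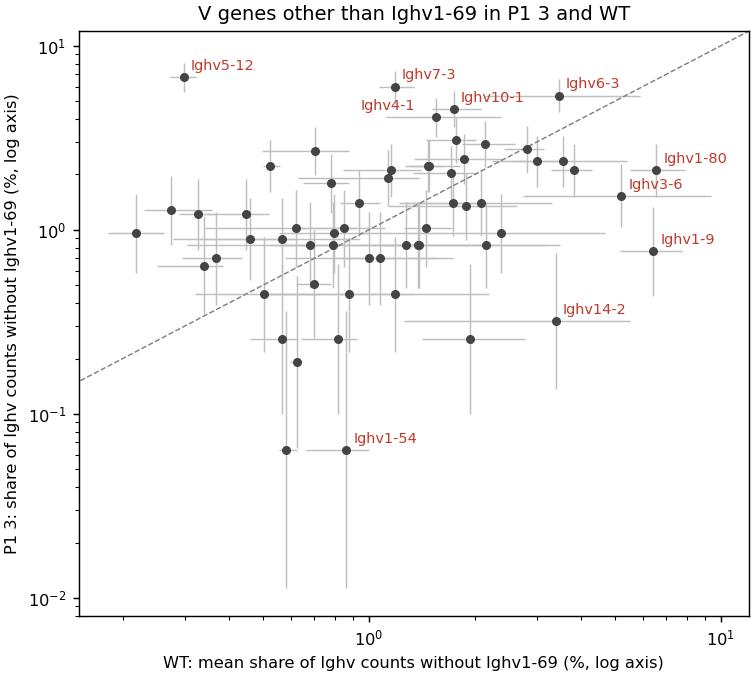
Share of Ighv counts without Ighv1-69 in P1 3 against the mean share in WT, both in percent on log axes, 1 point per gene with a WT mean of at least 50 counts or at least 10 counts in P1 3, vertical bars for the 95% Wilson interval, horizontal bars for the WT range and a dashed line of equal shares. Ighv5-12 and Ighv7-3 lie above the line at 6.76% and 6.0% in P1 3, and Ighv1-9, Ighv1-80, Ighv14-2 and Ighv1-54 lie below it.

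The WT libraries themselves were not alike in every V gene. Over the same 51 genes the highest WT share was 1.08 to 11.4-fold the lowest, with a median of 1.66-fold, and it exceeded 2-fold for 19. Ighv1-58 varied least and Ighv1-66 most, with shares of 0.302%, 3.46% and 0.329% of all Ighv counts in WT A, B and C. Ighv3-6 took 2.72%, 3.48% and 9.34%, and Ighv5-6 took 1.49%, 0.937% and 4.65%, both highest in WT C. Ighv14-2 took 5.48%, 1.25% and 3.39%, lowest in WT B. Per kilobase of the table's gene length the leading genes were Ighv1-9 with 1667 counts in WT A, Ighv1-80 with 1940 in WT B and Ighv3-6 with 2517 in WT C. The leading gene in WT thus differed by library, whereas Ighv1-69 led each P1 spleen with 5576, 1496 and 6729 counts per kilobase in P1 3, 4 and 5.

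Diversity of the V genes was lower in every P1 spleen than in every WT library. The effective number of genes, the exponential of the Shannon entropy of the shares, was 11.5, 1.37 and 1.19 in P1 3, 4 and 5, and 58.0, 59.8 and 46.8 in WT A, B and C. At an equal depth of 567 counts, 64.5, 7 and 5.05 genes are expected in P1, and 85.9, 85.2 and 78.9 in WT, so the groups were apart at equal depth too. Without Ighv1-69 the effective number was 52.2, 2.03 and 2.43 in P1, and 57.2, 58.9 and 46.1 in WT. P1 3 then lay inside the WT range while P1 4 and P1 5 stayed far below it. At 42 counts each, 27.4, 6 and 7.02 genes are expected in P1 without Ighv1-69, and 27.8, 28.3 and 25.4 in WT. The exact permutation test gave p = 0.10 with Ighv1-69 and p = 0.20 without it.

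By position, V gene counts in P1 lay farther from the D segments, and without Ighv1-69 they did not. The constant genes lie below the V genes in coordinate, with Ighm at 113382178, and the V genes span 2437 kb from the first start at 113536547. The 61 V genes farthest from the D segments held 67.6%, 92.8% and 97.0% of Ighv counts in P1 3, 4 and 5, and 30.1%, 38.3% and 33.2% in WT A, B and C. The 63 nearest held 19.9%, 0.529% and 0.0410% in P1, and 35.7%, 32.5% and 41.3% in WT. The 61 between them held 12.5%, 6.70% and 2.99% in P1, and 34.2%, 29.1% and 25.5% in WT. No group of genes overlapped between P1 and WT (exact permutation p = 0.10 each). The count-weighted mean distance from the first V gene was 1566, 1973 and 2018 kb in P1, and 1087, 1214 and 1098 kb in WT, with Ighv1-69 at 2050 kb. Without Ighv1-69 it was 962, 1006 and 1048 kb in P1 and 1078, 1205 and 1091 kb in WT, so the order of the groups turned round (exact permutation p = 0.10). Without that gene the nearest group held 44.7% in P1 3, above its 32.9% to 41.6% in WT, but 7.14% and 1.28% in P1 4 and 5. In P1 4 and P1 5 the middle group then held 90.5% and 93.6%, and Ighv1-11 lies in it.

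**Figure D5:**
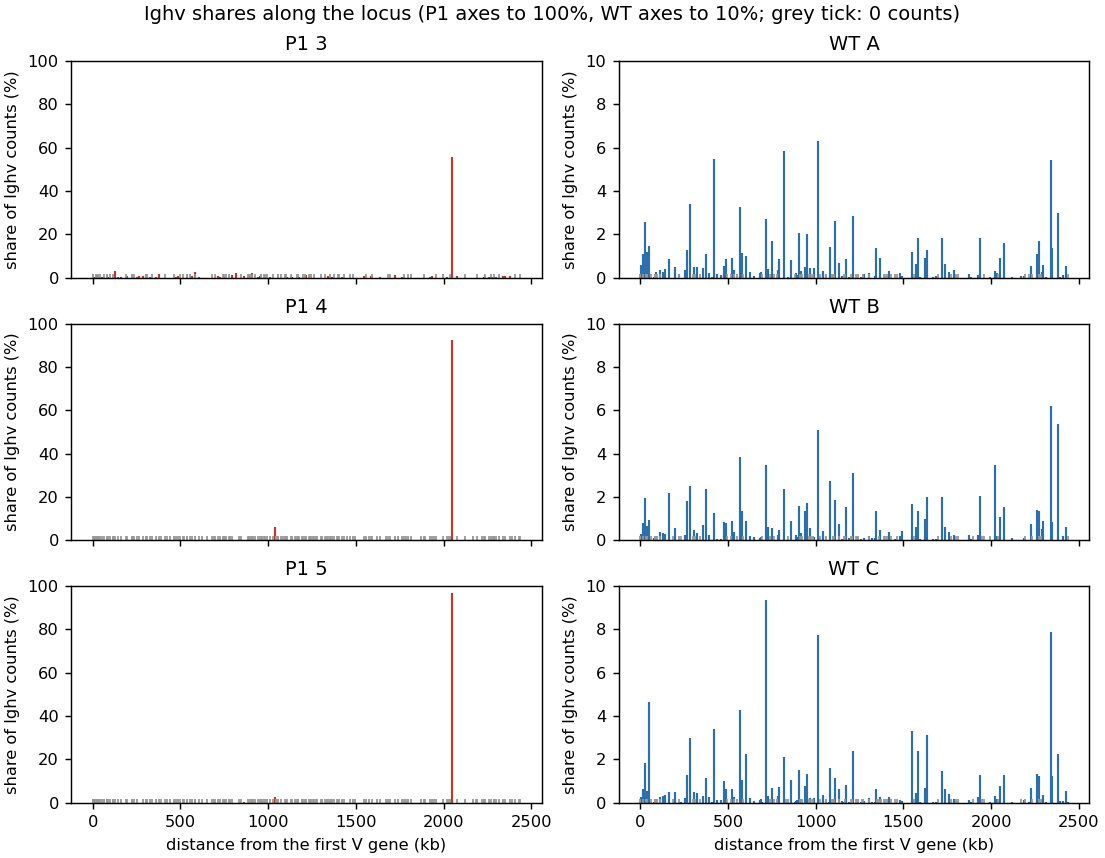
Share of Ighv counts in percent for each V gene against its distance from the first V gene in kb, with P1 libraries on the left (axis to 100%) and WT libraries on the right (axis to 10%), and grey ticks for genes at 0 counts. A single line at 2050 kb, Ighv1-69, stands out in each P1 library, while WT shares are spread along the whole span.

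The V genes beside Ighv1-69 did not share its level. Of the 5 rows before it, Ighv1-65 and Ighv1-68 had no count in any library and Ighv8-11 none in P1. Ighv1-66 had 13, 0 and 0 counts in P1 3, 4 and 5, and 28, 380 and 31 in WT A, B and C. Ighv1-67 had 2, 0 and 0 counts in P1, and 19, 23 and 15 in WT. Among the 5 rows after it, Ighv8-12 had 35, 0 and 0 counts in P1 and 149, 170 and 119 in WT, Ighv1-72 had 5, 1 and 0 in P1 and 7, 13 and 10 in WT, and Ighv8-13 had none. Ighv1-70 had no P1 count and Ighv1-71 none in P1 4 and 5. None of the 10 neighbours had a mean level above WT in P1, and only Ighv1-69 had more than 1 count in P1 4 or P1 5 among these 11 rows.

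Many members were not counted at all. In all 6 libraries 50 rows had no count, 43 of them pseudogenes by GENCODE M21 and 5 of them V genes, Ighv7-2, Ighv16-1, Ighv1-24, Ighv1-62-1 and Ighv8-13. Another 36 were counted in WT and not in any P1 spleen. A single count of the pseudogene Ighv1-44 was the only P1 count of a gene with none in WT. Pseudogenes, 70 of the 185 rows, took 0.312%, 0.176% and 0% of Ighv counts in P1 3, 4 and 5, and 0.917%, 0.691% and 0.657% in WT.

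In the fit over all genes, 81 of the 185 members passed the filter on low counts. Of these, 1 was higher, 53 lower and 27 not called (edgeR, adjusted p under 0.05, with 2 higher and 68 lower at an unadjusted p under 0.05), so 66.7% were called. Of all 15462 tested genes 27.9% were called, 16.9% higher and 11.0% lower. The higher gene was Ighv1-69. In 73 of the 81 all P1 libraries lay below all WT libraries, in 1 above, and 7 overlapped, against 24.9% below and 22.9% above among all tested genes. The median log2 fold change was -3.73 over the 81 members and 0.02 over all tested genes. A member with few P1 counts passed the filter through WT and had to differ, so these counts only describe the members, and 31 of the 81 had fewer than 10 counts in every P1 spleen. Scaled to the pan-B markers in place of the library, which puts the median gene at a log2 fold change of 3.55, 3 members were higher, Ighv1-69, Ighv1-11 and Ighv5-12, and 11 lower. Without P1 3, 2 members were higher, Ighv1-69 and Ighv1-11, and 81 lower, and without WT B 31 were lower. Fits that leave out a library filter genes anew, so the members tested in them are not the same 81. Their number and the share called over all genes in those fits are not reported here.

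By subfamily, the calls of lower members were 30 of 40 tested in Ighv1, 5 of 5 in Ighv3, 4 of 9 in Ighv5, 4 of 6 in Ighv2, 3 of 4 in Ighv9 and 3 of 4 in Ighv14. Of all tested genes 11.0% were lower. As given above, members with few P1 counts passed the filter through WT, so these calls only describe the subfamilies and do not rank them. The tested members of Ighv4, Ighv7, Ighv8, Ighv10 and Ighv12, 1 or 2 in each, had median log2 fold changes of -2.36, -1.74, -2.98, -2.85 and -1.74 and did not pass. The smallest adjusted p among lower genes was for Ighv1-54, which had 1 count over the P1 spleens and 256 over WT. Its ratio of WT to P1, from counts pooled over each group and scaled by library size, was 139. The 95% counting interval was 24.7 to 5505. Ighv1-15 had 4, 0 and 1 counts in P1 3, 4 and 5, and 130, 302 and 151 in WT, a log2 fold change of -5.99 ± 0.73 (edgeR, adjusted p = 0.0010). Ighv1-9, at 1.03, 0 and 0 CPM in P1 and 35.4, 36.0 and 55.03 CPM in WT, had -6.54 ± 0.86 (adjusted p = 0.0013). Ighv14-2 had -6.72 ± 0.92 (edgeR, adjusted p = 0.0016). The few P1 counts of these 3 genes lay in P1 3, but for 1 count of Ighv1-15 in P1 5. Ighv9-2 and Ighv15-2 had no P1 count and were at least 17.9 and 14.5-fold lower, with 3 counts over the group as the floor. Ighv1-85, Ighv2-5 and Ighv13-2 had 1 P1 count each, against 172, 99 and 90 counts over WT, and Ighv1-58 had 3, against 184. Ighv9-1 had 4 P1 counts, all in P1 3, and 241 over WT (log2 fold change -5.03 ± 0.84, adjusted p = 0.0033). Ighv1-80 and Ighv3-6 fell by 5.25 and 5.38 (log2; adjusted p = 0.0067 and 0.0085).

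The genes that make or carry the heavy chain moved less uniformly. Of 31 listed genes 24 were tested, 2 were higher and 12 lower, with a median log2 fold change of -0.96. Of all tested genes 27.9% were called, 16.9% higher and 11.0% lower. Scaled to the pan-B markers, 16 of the list were higher and 0 lower (edgeR). That scaling raises the median gene too, as given above, and the share of all genes called under it is not reported here. The calls under that scaling therefore cannot be compared with those of other genes. Among the constant genes, which set the antibody class, Ighm was at 3103, 1843 and 3574 CPM in P1 3, 4 and 5, and 5148, 6473 and 6334 CPM in WT (log2 fold change -1.08 ± 0.48, adjusted p = 0.130). Ighd, the IgD constant gene of mature naive B cells, was at 55.3, 1.16 and 4.76 CPM in P1, and 939, 1202 and 784 CPM in WT (-5.55 ± 1.24, adjusted p = 0.012). Ighg3, the IgG3 constant gene, was higher, at 237, 144 and 251 CPM in P1 3, 4 and 5 and at 29.5, 41.5 and 65.6 CPM in WT (2.21 ± 0.38, adjusted p = 0.0036). Ighg1 and Ighg2b, constant genes of other IgG classes, fell by 3.69 and 2.00 (log2; adjusted p = 0.0044 and 0.046), although Ighg2b was positive at 1.17 when scaled to the pan-B markers. Igha, the IgA constant gene, ranged from 0.231 to 358 CPM in P1, highest in P1 3, against 28.6 to 83.1 CPM in WT. Cd79a and Cd79b, the signalling partners of membrane immunoglobulin, fell by 2.89 and 2.66, and the octamer factors Pou2f1, Pou2f2 and Pou2af1, which act on V gene promoters, fell by 0.83, 1.71 and 1.97, but all 5 had a positive log2 fold change when scaled to the pan-B markers. That list includes Cd79a, Cd79b, Pou2f2, Pou2af1, Pax5 and Ebf1 themselves. Pax5 and Ebf1, B lineage factors that also act on locus folding, fell by 2.21 and 4.13, and under that scaling Pax5 was positive at 1.15. Of the recombination genes none was tested, and Rag1 was at 10.8, 0 and 0 CPM in P1 and 0.788, 0.514 and 0.529 CPM in WT. The surrogate light chain gene Igll1 had 35 counts over P1, all in P1 3, and 0 in WT.

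The J segments were looked at after their values were seen. Their counts were few beside the 36083, 7963 and 30810 counts of Ighm in P1 3, 4 and 5. Whether reads on these rows came from joined transcripts was not tested, so the shares are not a measure of the joins. Ighj4 had 98, 23 and 67 counts in P1 3, 4 and 5, and 166, 66 and 78 in WT A, B and C. It took 36.2%, 28.8% and 28.4% of the J gene counts in P1 3, 4 and 5, and 47.98%, 48.2% and 47.3% in WT A, B and C. Ighj1 took 16.6%, 13.8% and 32.2% in P1, and 4.91%, 14.6% and 15.8% in WT. Ighj4 was below WT in each spleen and Ighj1 overlapped, and no J segment took more than 42.5% of the counts in any P1 spleen. The exact permutation p-values were 0.10 and 0.40 (adjusted over 4 segments, 0.40 each).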

How the data were processed

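RNA of 3 P1 spleens and 3 WT B cell samples was analysed from a table of raw counts per gene, deposited by the authors with gene coordinates and lengths (column unit: bases). Per the submitters' processing notes, Trim Galore, HISAT2, featureCounts and GRCm39 were used. Versions, options, the counting strand and the handling of reads that match several genes are not given in the sources used here. Reads of joined V genes carry D, J and mutated bases, which may change how many align.

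Low-count genes were dropped (filterByExpr by group), normalised CPM are scaled by TMM factors, and the 15462 genes left were tested with the edgeR 4.0.16 quasi-likelihood F-test (R 4.3.3), without covariates, with Benjamini-Hochberg adjustment. The function was tested on simulated data. Every adjusted p of a single gene is from this test. In ± values the SD is over 3 libraries and SE belongs to log2 fold changes. Shares were compared by exact two-sided permutation of the 6 libraries, with Wilson 95% intervals for single shares (scipy 1.17.1). Genes at 0 in P1 were set against 3 counts over the group. Genes with 1 to 3 counts have a ratio with an exact counting interval. Ratios of WT to P1 for single genes divide the pooled counts of each group by its summed normalised library sizes.

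Positions were cut into 3 groups of 63, 61 and 61 genes. Gene types and sequences come from GENCODE M21 (made on GRCm38) by Ensembl ID, for all 185 members, and were aligned with Biopython 1.88. Coordinates are those of the table. Ighv5-8 and Ighv1-13 have 2 rows each, the second on the plus strand. Without a stated strand, reads of overlapping genes cannot be told apart.

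Members and lists were chosen with earlier results of these data known. Single values of some genes of the heavy chain list are not reported here. Named V genes are the 5 most counted per library, the 5 rows on each side of Ighv1-69, the most counted of each subfamily in WT, the 10 called with the smallest adjusted p in each direction, and any gene in a count of 5 or fewer. The genes closest to Ighv1-69 in sequence were added later. Alternatives were DESeq2 1.42.0, other scalings and filters, counts per length and leaving out each library.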

Additional observations from a re-analysis of the deposited data

How the results depend on the processing

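Of the summary results under their alternatives, 264 kept their direction, or for counts their size within 1.5 times, 7 counts moved by more than 1.5 times and 9 values changed sign. Of the single genes, 385 kept direction and call, 67 lost the call, 13 gained it and 22 changed sign. Every alternative left Ighv1-69 higher and called, with log2 fold changes from 4.56 to 8.37. Under scaling to the pan-B markers 3 V genes were higher and 11 lower, and 16 genes of the heavy chain list were higher and 0 lower. That scaling also raised the median gene, by more than each gene listed below as turned positive. Set against those markers, the difference in Ighv total (P1 minus WT) was 54.3 counts per 1000. Genes whose log2 fold change turned positive under that scaling were Cd79a (0.37), Cd79b (0.60), Ighg2b (1.17), Ighg2c (3.13), Ighm (2.34), Pax5 (1.15), Pou2af1 (1.48), Pou2f1 (2.78), Pou2f2 (1.88), Ighv10-1 (0.88), Ighv12-3 (1.49), Ighv4-1 (0.87), Ighv6-3 (0.27), Ighv6-6 (0.70), Ighv7-3 (1.90), Ighv8-12 (0.17) and Ighv8-8 (0.32). DESeq2 gave 58 lower V genes, library totals without TMM 61, and no filter 53. Without Ighv1-11, an alternative chosen after seeing the data, the P1 minus WT difference in share of the counts without Ighv1-69 was -22.4 percentage points for Ighv1, 1.59 for Ighv5 and 4.86 for Ighv8. Ighv1-11 held 35 of 42 and 63 of 78 of these counts in P1 4 and P1 5, so the differences rest on very few counts there. Ighv8 had 93, 0 and 3 counts in P1 3, 4 and 5.

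Leaving out 1 library at a time gave 1 to 2 higher and 31 to 81 lower V genes, the lowest without WT B and the highest without P1 3. Genes were filtered anew in each of these fits, so the calls do not refer to the same set of tested members. The difference ranged from -1.54 to 0.10 percentage points for Ighv7, and without Ighv1-69 from -1.67 to 0.43 for Ighv4 and from -1.86 to 1.11 for Ighv8. Log2 fold changes ranged from -5.44 to 1.58 for Igha, from -1.43 to 0.43 for Ighg2c and from -7.52 to 1.301 for Ighv5-12, with the lowest for Igha and Ighv5-12 without P1 3, where Ighv5-12 has no P1 count and its value is no bound. The causes were not tested. No paired analysis was possible because the groups share only replicate number 3 and the WT columns carry no mouse number.

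Depth limits what P1 4 and P1 5 can show of V genes other than Ighv1-69, since 42 and 78 counts allow a gene at 0 counts a share of up to 7.14% and 3.85% of them. With 3 against 3 libraries no share could reach an exact permutation p below 0.10.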
